A study of Rattus norvegicus with 10 samples.

Results

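Lens explants of 3-day-old rats that had been at 100 ng/mL FGF2 for 4 hr were compared with explants at the 0 hr time point, which had spent a night at 5 ng/mL FGF2. The comparison rests on 4 of the 10 arrays of the study, 2 at 4 hr and 2 at 0 hr, chosen by the time point in their labels; the other 6 arrays hold explants at 2, 12, and 24 hr of the higher dose. An explant is a piece of lens capsule with its epithelial cells, and each assay used 6 of them. All groups share the night at 5 ng/mL, so the 0 hr explants are not untreated. Explants held at 5 ng/mL through the same 4 hr were not analysed here, and the effect of the dose cannot be told apart from that of the added time. The study's methods describe the 2 arrays of a time point as RNA from different cultures, the labels do not, and the p-values measure the spread between these arrays only.

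Fibroblast growth factors bind receptor tyrosine kinases and, through Ras, activate the kinases Raf, MEK, and ERK, and in parallel the lipid kinase PI3K. ERK phosphorylates Ets-family factors and the partners of serum response factor, which switch on immediate early genes within minutes, and these are followed by feedback inhibitors that dampen the pathway. In the lens a low level of FGF supports division of the epithelial cells, whereas a high level makes them elongate into fiber cells that fill with crystallins.

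The values were intensities normalized by the authors, here taken to log2, and a transcript was called higher or lower at 4 hr where the adjusted p from limma was under 0.05. The array medians lay between 98.0 and 100.3 over the 10 arrays. The 2 arrays of 4 hr were less alike than those of 0 hr, with an SD of their log2 difference of 0.30 at 4 hr and 0.16 at 0 hr. The array controls differed as well: the log2 5'/3' ratio of GAPDH was −0.17 and −0.30 on the 4 hr arrays and −0.05 and 0.00 on the 0 hr arrays, that of Actb was −1.37 and −2.08 at 4 hr and −1.12 and −1.21 at 0 hr, and the 5S rRNA controls read 192 and 183 at 4 hr and 129 and 154 at 0 hr. The part of GAPDH and the 5S rRNA in the results was not tested, and a fit that took the Actb ratio into account called 6231 probe sets, where 7385 were called without it. Of the markers of the lens, the α-crystallin genes Cryaa and Cryab read at least 18458 and the lens regulator Pax6 at least 6999 on all 4 arrays. Of the 12 markers of lens epithelium, 4 were called lower at 4 hr (Pax6, Pitx3, Gja3, and Bfsp2), where 11.9% of all probe sets were, and 4 or 5 when any 1 array was left out. Of these 4, Gja3 and Bfsp2 are genes of fiber cells and belong to the fiber list below as well, so the list is not one of epithelium alone. None of the 12 was called higher by limma or had a rise at an unadjusted p under 0.05 in that fit. By the methods' analysis of variance 3 had such a rise, and 1 was called higher with a trended and robust prior. The median log2 difference of the 12 was −0.32, and their summed intensity was 82958 and 82443 at 4 hr and 88281 and 87719 at 0 hr. Without Cryaa, the brightest of them, the sum was 57810 and 58236 at 4 hr and 65766 and 65075 at 0 hr. The part of this shift in the other results was not tested.

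Of the 31042 probe sets tested, 7385 (23.8%) were called between 4 hr and 0 hr. The arrays of the 2 times did not overlap in 62.2% of all probe sets. The calls divided evenly, with 3692 (11.9%) higher and 3693 (11.9%) lower at 4 hr. The counts of list members against 0 hr given below stand beside these shares of 11.9% in each direction. The rises were larger than the falls: 956 were at least 2-fold and 206 at least 4-fold, against 650 and 54 of the falls, and 43 rises but no fall reached 8-fold. The median log2 difference was 0.66 among the rises and −0.61 among the falls, and −0.02 over all probe sets. The count of 7385 became 3973 without 0 hr replicate 1 and 4016 without 0 hr replicate 2, and 6533 without 4 hr replicate 1.

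**Figure D1:**
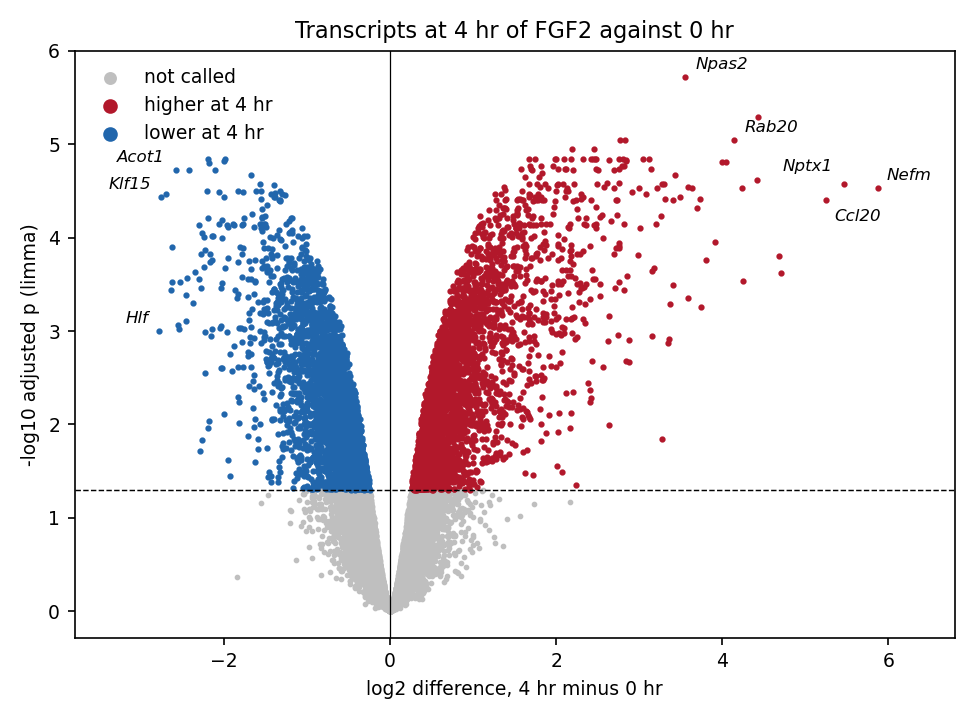
Log2 difference (4 hr minus 0 hr, x axis) and −log10 adjusted p from limma (y axis) of the 31042 probe sets, with the 3692 called higher in red, the 3693 called lower in blue and the others in grey; the dashed line is the threshold of 0.05. The rises extend to 5.87 and the falls to −2.79.

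The largest rise was that of Nefm, which encodes the medium neurofilament subunit of axons. Nefm read 2172 and 3380 on the 4 hr arrays and 45.8 and 46.7 on the 0 hr arrays (log2 difference 5.87, standard error 0.36, adjusted p = 2.9e-05, with 2 arrays at each time here and throughout). Its partner subunit Nefl read 255 and 365 at 4 hr and 21.1 and 26.5 at 0 hr (3.69, standard error 0.26). The neuronal pentraxin gene Nptx1, whose product gathers glutamate receptors at synapses, stood at 819 and 809 at 4 hr and at 20.8 and 16.4 at 0 hr (5.46, standard error 0.32). At 0 hr all 3 read under 50, below the array medians. Of 33 neuronal and secretory granule genes, 9 rose and 1 fell, with a median log2 difference of 0.08, and without 0 hr replicate 1 the number of rises was 6 and without replicate 2 it was 7. Among the others that rose were Nptxr, which encodes a receptor for pentraxins (1925 and 2625 at 4 hr, 457 and 453 at 0 hr), and Vgf, which encodes a secreted neuropeptide precursor (787 and 698 at 4 hr, 324 and 405 at 0 hr). The retinal neuron markers were under 100 on all 4 arrays in 8 of 8 cases, none read 0, and 2 of them were called higher, a number that was 0 without 0 hr replicate 2, without 4 hr replicate 2, or without either 12 hr array. The part of retinal cells in these rises was not tested.

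Of the other genes among the 20 largest rises, Rab20, a small GTPase gene of endosomes, read 815 and 970 at 4 hr and 47.2 and 53.9 at 0 hr (4.14, standard error 0.16, adjusted p = 9e-06). Krt12, the keratin gene of corneal epithelium, read 681 and 390 at 4 hr and 31.7 and 46.7 at 0 hr (3.75, standard error 0.44). Baalc and the adaptor gene Sh2d5 rose by 4.04 and 3.59, and the chemokine gene Cxcl3 by 3.41 at the probe set shown and at 3 of its 5 probe sets.

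Chemokines made up a further set of large rises. Ccl20, a chemokine for lymphocytes and dendritic cells, read 4344 and 4504 at 4 hr and 81.6 and 167 at 0 hr (log2 difference 5.24, standard error 0.35, adjusted p = 4e-05). The monocyte chemokine Ccl2 read 3902 and 6525 at 4 hr and 252 and 153 at 0 hr (4.68, standard error 0.42), and its relative Ccl7 read 276 and 668 at 4 hr and 48.3 and 37.1 at 0 hr (3.34, standard error 0.47). The neutrophil chemokine Cxcl1 stood at 2285 and 1992 at 4 hr and at 125 and 102 at 0 hr (4.24, standard error 0.26). In each of these 4 genes both 4 hr arrays lay above both 0 hr arrays, which the choice of the 20 largest rises required. The same was so of 28.8% of all probe sets. Of the 36 chemokines, cytokines, and genes of the nuclear factor κB (NF-κB) feedback, 17 rose and 2 fell, with a median of 0.60, and the number of rises lay between 17 and 19 when any 1 array was left out. The rises took in Il18, a cytokine released by inflammasomes (860 and 1164 at 4 hr, 108 and 78.9 at 0 hr), and Ptgs2, the inducible cyclooxygenase (1004 and 1023 at 4 hr, 204 and 179 at 0 hr). The NF-κB subunit genes Nfkb1, Nfkb2, and Relb rose by 1.51, 1.37, and 1.67, and the genes of their inhibitors Nfkbia and Tnfaip3 by 1.48 and 1.21 (standard errors 0.12 to 0.23). In contrast, Socs3, a feedback inhibitor of cytokine receptors, was called lower at −0.89 (standard error 0.25), a call lost without 0 hr replicate 1 (adjusted p = 0.208) or 4 hr replicate 2 and without either 12 hr array. The other call was of Il6, which read under 20 on all 4 arrays and lost the call without any array but 4 hr replicate 1. Cxcl1, Cxcl2, and Cxcl3 are alike in sequence, and whether their probe sets share signal was not tested.

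Of 14 macrophage and leukocyte markers limma called none, 2 had an unadjusted p under 0.05, 2 were called with the Actb ratio as a covariate or without either 2 hr array, and 1 without 0 hr replicate 1. In this list 12 read under 100 on all 4 arrays, and none read 0. The lowest intensity among them was 12.5. The summed intensity of the 14 was 804 and 789 at 4 hr and 692 and 588 at 0 hr, with Ptprc, the pan-leukocyte gene, at 19.3 and 15.1 at 4 hr and at 16.5 and 14.4 at 0 hr. The largest difference in that list was that of Cd68 (0.72, standard error 0.29, adjusted p = 0.12). In bulk RNA such as this, fewer cells of a type and less RNA per cell cannot be told apart.

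A κB site, the sequence that NF-κB binds, lay in the promoters of 2 of the 12 genes among the 20 largest rises that have a promoter in the RefSeq set used (300 bases, 250 before and 50 after the gene start), against 4.18% of all 33469 promoters. Here and below a gene counts if any of its promoters matches, whereas the share over all promoters counts each promoter singly. The 2 rates are therefore unlike for genes with several promoters. The windows are shown because they belong to the chemokines with such a match among the largest rises, with the matched bases in capitals, 5′ to 3′ on the strand of the gene and from the rat build GRCr8 (chr9:91837060-91837089, plus strand, for Ccl20, where the match is on the opposite strand, and chr14:17479386-17479415, minus strand, for Cxcl1).
Ccl20: aatcaatgggGGAAAACCCCgggtgagaac
Cxcl1: cctgtgctccGGGAATTTCCctggcctgga
A match is a run of letters and says nothing of binding in these cells.

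**Figure D2:**
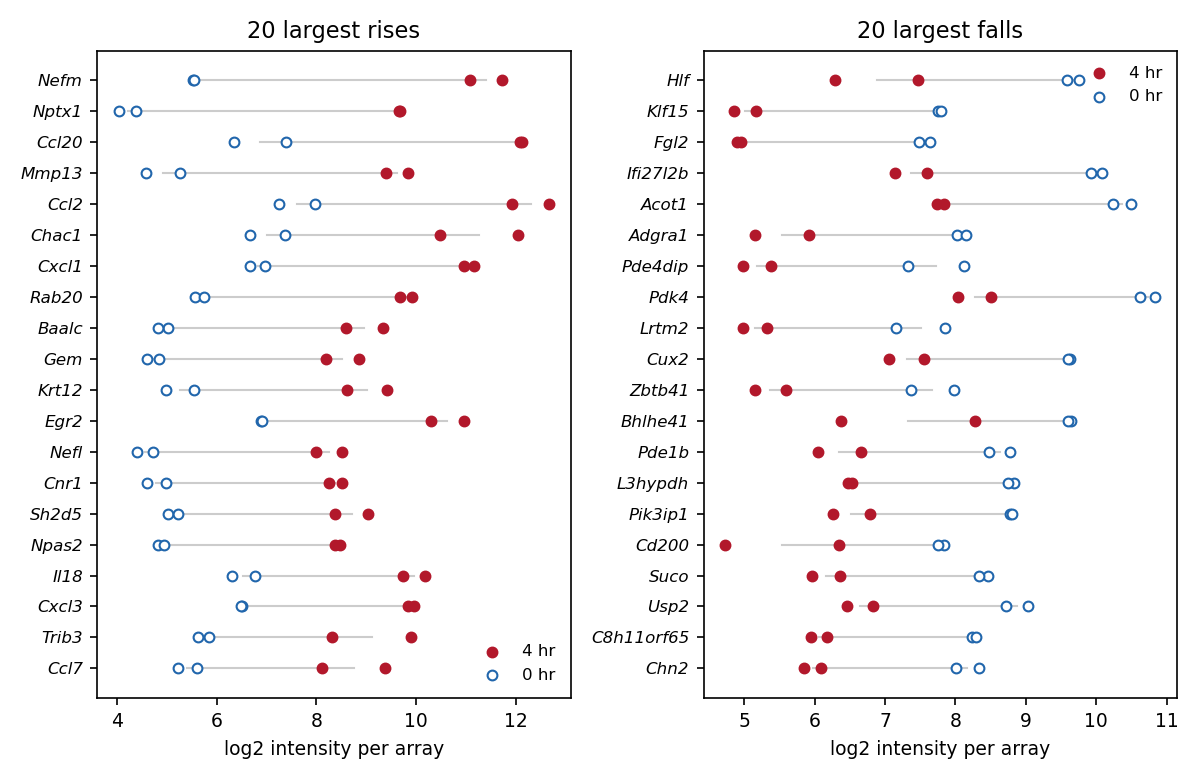
Log2 intensity (x axis) on each array of the 20 genes with the largest rises (left) and the 20 with the largest falls (right), with filled red points for the 2 arrays at 4 hr, open blue points for the 2 arrays at 0 hr, and a grey line between the means. In all 40 genes the arrays of the 2 time points do not overlap, which the choice of these genes required.

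Immediate early genes were still high at 4 hr. Egr1, a zinc finger factor switched on by ERK, read 12892 and 14051 at 4 hr and 2528 and 2369 at 0 hr (log2 difference 2.46, standard error 0.10, adjusted p = 1.1e-05). Its relative Egr2 read 1262 and 1996 at 4 hr and 118 and 121 at 0 hr (3.73, standard error 0.25, adjusted p = 3.9e-05). Of the 29 immediate early genes, 17 rose and 1 was called lower, and the median was 0.95. The lower call, of Nr4a2 (−0.37, standard error 0.11), was lost without any 1 array but 0 hr replicate 2. The AP-1 members Fos (1549 and 2156 at 4 hr, 894 and 791 at 0 hr), Fosl1 (1509 and 1720 at 4 hr, 300 and 293 at 0 hr), and Junb (798 and 903 at 4 hr, 238 and 215 at 0 hr) all rose. Jun rose less, by 0.85, and was not called by the mean of all its probe sets. The cell growth factor Myc was at 294 and 202 at 4 hr and at 63.2 and 44.9 at 0 hr, and the small GTPase gene Gem at 291 and 461 at 4 hr and at 28.4 and 24.1 at 0 hr. The factors Klf4, Klf6, and Klf10 rose by 0.95, 1.22, and 0.84. In 23 of the 29 genes 4 hr replicate 2 read higher than 4 hr replicate 1 (median log2 ratio 0.21), against 50.3% of all probe sets. On the 0 hr arrays replicate 2 was higher in 12 of 29. The number of immediate early genes called higher lay between 16 and 20 when any 1 array was left out.

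The CArG box, to which serum response factor binds, was present in the promoters of 4 of the 17 immediate early genes with a promoter sequence, Egr1, Egr2, Klf6, and Srf, against 1.64% of all promoters. Srf itself, the gene of the factor, read 822 and 704 at 4 hr and 512 and 524 at 0 hr (log2 difference 0.56, standard error 0.11, adjusted p = 0.0506 without 0 hr replicate 1). The cAMP response element TGACGTCA was in 3 of the 17, Ier2, Jund, and Maff (1.83% of all promoters), and the AP-1 site TGANTCA in none of them (7.33%). The 4 windows shown, from RefSeq on GRCr8, show the CArG boxes of genes with the steepest rises and of Srf in capitals, at −83 from the gene start for Egr2 (chr20:21054505-21054534, minus strand), at −105 and −83 for Egr1 (chr18:26736963-26736992 and chr18:26736985-26737014, plus strand), and at −81 for Srf (chr9:21923985-21924014, plus strand).
Egr2: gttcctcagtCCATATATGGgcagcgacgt
Egr1, distal: gtcggtccttCCATATTAGGgcttcctgct
Egr1, proximal: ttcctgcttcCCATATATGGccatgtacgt
Srf: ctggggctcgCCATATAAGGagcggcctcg
Egr2 and the proximal Egr1 site carry the same bases in capitals. Srf has a further CArG box at −61, which is not shown. The Ets site CCGGAAGT was in no promoter of the 17 genes (3.81% of all promoters), which says only that these letters are not in these windows.

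Of 20 feedback inhibitors of ERK, 12 rose and 2 were called lower, with a median of 0.75. Nab2, a corepressor that binds Egr factors, read 1552 and 1688 at 4 hr and 199 and 268 at 0 hr (log2 difference 2.81, standard error 0.13, adjusted p = 1.5e-05). Dusp6, the cytoplasmic phosphatase of ERK, stood at 2664 and 2723 at 4 hr and at 673 and 479 at 0 hr (2.25, standard error 0.23), and the nuclear phosphatase Dusp5 at 315 and 357 at 4 hr and at 67.5 and 53.3 at 0 hr (2.48, standard error 0.19). The Sprouty genes, whose products block receptor tyrosine kinase signals upstream of ERK, did not move as 1 family. Spry4 (725 and 671 at 4 hr, 185 and 171 at 0 hr) and Spry2 (1571 and 1366 at 4 hr, 603 and 447 at 0 hr) rose by 1.97 and 1.5. Spry3 fell, with 72.0 and 66.5 at 4 hr and 128 and 115 at 0 hr (−0.81, standard error 0.11, adjusted p = 0.00092). Spry1 (346 and 311 at 4 hr, 474 and 439 at 0 hr) stood at −0.48 (standard error 0.15, adjusted p = 0.046), and its call was lost under median centring and without any 1 array of 0, 2, 4, or 12 hr (adjusted p = 0.215 without 0 hr replicate 1). Each of these 4 directions was the same under quantile normalization and median centring.

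Of 17 Ets factors, 11 were higher and none lower at 4 hr (median 0.60), and between 8 and 12 were higher when any 1 array was left out. The 3 PEA3-type factors, which FGF induces in many tissues, all rose. Etv4 was at 668 and 575 at 4 hr and at 151 and 113 at 0 hr (2.25, standard error 0.31), Etv5 at 541 and 560 at 4 hr and at 217 and 156 at 0 hr (1.58, standard error 0.18), and Etv1 at 4471 and 4330 at 4 hr and at 2152 and 1844 at 0 hr (1.14, standard error 0.17). Elk3 and Ets1 rose by 1.47 and 1.40. Ets2 was not called (0.56, standard error 0.19, adjusted p = 0.061).

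Among the 24 FGF ligands, receptors, and adaptors, 3 rose and 4 fell (12.5% and 16.7%, where 11.9% of all probe sets were called in each direction). Falls numbered 2 without 0 hr replicate 2, without 4 hr replicate 2, or with the Actb ratio as a covariate, and 6 without 4 hr replicate 1. Fgfr1 read 1896 and 2270 at 4 hr and 909 and 1075 at 0 hr (1.07, standard error 0.12, adjusted p = 0.00038), and both of its probe sets rose. Fgfr2 read 2105 and 2389 at 4 hr and 3548 and 3567 at 0 hr at its brightest probe set (−0.67, standard error 0.10, adjusted p = 0.0018), which was the only 1 of its 5 probe sets to be called. Fgfr4 was called lower as well, at −0.66, and not without 0 hr replicate 2 (adjusted p = 0.155) or 4 hr replicate 2. The heparan sulfate proteoglycan genes Sdc4 (13204 and 11805 at 4 hr, 4717 and 5335 at 0 hr) and Sdc1 (680 and 691 at 4 hr, 318 and 351 at 0 hr), whose sugar chains help FGF bind its receptors, rose by 1.32 and 1.04. Gpc4, a glypican of the same class, fell at −0.66. Of the 11 genes of the EGF receptor family and its ligands, 3 rose and none fell. Egfr was at 494 and 912 at 4 hr and at 185 and 154 at 0 hr (1.99, standard error 0.27), its relative Erbb2 at 552 and 638 at 4 hr and at 272 and 262 at 0 hr (1.15, standard error 0.11), and the ligand Hbegf at 285 and 225 at 4 hr and at 95.9 and 93.3 at 0 hr (1.42, standard error 0.15).

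In a list that mixes actin and contractile genes with targets of serum response factor, 14 of 28 rose and 3 fell, with a median of 0.43. Fewer of them fell without either 0 hr array or 4 hr replicate 2. Vcl, which encodes the focal adhesion protein vinculin, read 4482 and 5409 at 4 hr and 1904 and 1927 at 0 hr (1.36, standard error 0.14, adjusted p = 0.00033). Pdlim7, a scaffold on actin fibers, read 1270 and 1637 at 4 hr and 310 and 313 at 0 hr (2.21, standard error 0.13), and Zyx, a further adhesion protein, 1220 and 1710 at 4 hr and 590 and 607 at 0 hr (1.27, standard error 0.15). The nonmuscle myosin gene Myh9 and the filamin gene Flna rose by 0.87 and 0.80. Lima1, an actin cross-linker, went the other way, with 154 and 170 at 4 hr and 533 and 505 at 0 hr (−1.68, standard error 0.23). The integrin genes Itga7 and Itga3, which encode laminin receptors, rose by 1.19 and 0.94. The cadherin-related gene Cdhr1 fell, with 167 and 144 at 4 hr and 650 and 497 at 0 hr (−1.88, standard error 0.14).

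Of the 23 extracellular proteases and inhibitors 5 rose and 1 fell (21.7% and 4.35%, where 11.9% of all probe sets were called in each direction), with a median of −0.08. The collagenase gene Mmp13 was at 678 and 921 at 4 hr and at 23.9 and 38.2 at 0 hr (4.71, standard error 0.46, adjusted p = 0.00024). The receptor of urokinase Plaur was at 407 and 386 at 4 hr and at 83.5 and 75.1 at 0 hr (2.32, standard error 0.15), and the tissue activator Plat rose by 0.70. Mmp11 fell, with 144 and 160 at 4 hr and 322 and 376 at 0 hr. The Mmp13 promoter holds an AP-1 site at −66, shown in capitals because this gene had the steepest rise among those with such a match (RefSeq, GRCr8, chr8:12782751-12782780, plus strand).
Mmp13: caccccaagtggTGACTCAtcactattgct
Of the 12 genes with a promoter among the 20 largest rises, 3 held an AP-1 match in at least 1 promoter (Mmp13, Ccl7, and Il18), against 7.33% of all single promoters.

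The genes that ATF4 switches on when amino acids or protein folding are disturbed rose in 17 of 33 cases, and 1 fell (median 0.49). Chac1, which encodes an enzyme that degrades glutathione, read 1431 and 4258 at 4 hr and 164 and 102 at 0 hr (4.25, standard error 0.44, adjusted p = 0.00029). The pseudokinase gene Trib3 read 319 and 955 at 4 hr and 57.7 and 49.3 at 0 hr (3.37, standard error 0.39), and the gene of the factor itself, Atf4, 5026 and 7392 at 4 hr and 2337 and 2173 at 0 hr (1.44, standard error 0.16). The set reaches amino acid transport and charging. The cationic amino acid transporter Slc7a1 stood at 1351 and 2199 at 4 hr and at 296 and 251 at 0 hr (2.66), the leucine transporter Slc7a5 at 1681 and 2060 at 4 hr and at 496 and 426 at 0 hr (2.02), and the mitochondrial folate enzyme Mthfd2 at 1180 and 1613 at 4 hr and at 331 and 293 at 0 hr (2.15). The tRNA synthetase genes Aars1 and Nars1 rose by 1.10 and 1.00. Asns, the asparagine synthetase gene that is a classical ATF4 target, was not called (821 and 1299 at 4 hr, 1374 and 1184 at 0 hr), and Slc7a3 was called lower at −1.15, a call lost without 0 hr replicate 2 (adjusted p = 0.0661) or 4 hr replicate 1. Of 20 chaperones of the endoplasmic reticulum 1 was called higher and 4 lower, and the number of falls went to 2 without 0 hr replicate 1, 0 without 0 hr replicate 2, 1 without 4 hr replicate 2, and 2 without either 12 hr array.

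The 4 hr arrays differed in this list. In 31 of the 33 genes 4 hr replicate 2 read higher than 4 hr replicate 1 (median log2 ratio 0.33), against 50.3% of all probe sets, and on the 0 hr arrays replicate 2 was higher in 12 of 33. The number of ATF4 genes called higher lay between 12 and 18 when any 1 array was left out, was 12 with the Actb ratio taken into account, and was 10 with the methods' analysis of variance and unadjusted P. An ATF4 composite site, TGATGNAA on either strand, lay in the promoters of Chac1 and Trib3 among the 12 genes with a promoter of the largest rises (3.98% of all single promoters). Both are given here as the steepest genes of this list, from RefSeq on GRCr8, at chr3:126795953-126795982 (plus strand) and chr3:161275536-161275565 (minus strand), with the match, which is on the strand opposite to the gene, in capitals.
Chac1: cttctccgccgTTGCATCActcctgctagg
Trib3: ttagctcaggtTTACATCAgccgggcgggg

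The largest fall was that of Hlf, which encodes a leucine zipper factor of the circadian output. It read 78.6 and 177 at 4 hr and 866 and 767 at 0 hr at the probe set with the largest change (log2 difference −2.79, standard error 0.37, adjusted p = 0.001), and 3 of its 4 probe sets fell. Klf15, a factor that acts in amino acid and glucose use, read 29.1 and 35.9 at 4 hr and 215 and 223 at 0 hr (−2.76, standard error 0.18, adjusted p = 3.7e-05), at 1 of its 3 probe sets. The pyruvate dehydrogenase kinase gene Pdk4, which turns cells from glucose to fat oxidation, stood at 264 and 363 at 4 hr and at 1834 and 1573 at 0 hr (−2.46, standard error 0.31). Acot1, an acyl-CoA thioesterase gene, was at 213 and 229 at 4 hr and at 1446 and 1214 at 0 hr (−2.58, standard error 0.14). The homeobox gene Cux2 fell to 133 and 188 at 4 hr, against 791 and 776 at 0 hr, and Chn2, which encodes a chimaerin that switches off Rac, to 68.2 and 58.0 at 4 hr, against 257 and 322 at 0 hr. The phosphodiesterase gene Pde1b was at 66.0 and 101 at 4 hr and at 358 and 440 at 0 hr (−2.28). The remaining falls among the 20 were those of Fgl2, Ifi27l2b, Adgra1, Pde4dip, Lrtm2, Zbtb41, Bhlhe41, L3hypdh, Pik3ip1, Cd200, Suco, Usp2, and C8h11orf65, between −2.64 and −2.20. Cux2, Pde1b, Pik3ip1, Cd200, and C8h11orf65 were each called at 1 of their 2 probe sets. The call of Bhlhe41 was lost without either 0 hr array or 4 hr replicate 1 (adjusted p = 0.0648 without the last), and that of Cd200 without either 0 hr array or 4 hr replicate 2 (adjusted p = 0.0605 without the last).

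Falls gathered in the list of FoxO targets and PI3K regulators. It mixes genes that FoxO factors switch on while PI3K is quiet with genes that act on PI3K signaling. Of 28 measured, 14 fell and 2 rose, with a median of −0.47, and between 11 and 14 fell when any 1 array was left out. Pik3ip1, which encodes an inhibitor of PI3K, read 76.7 and 110 at 4 hr and 437 and 446 at 0 hr (−2.26, standard error 0.18, adjusted p = 9e-05), at 1 of its 2 probe sets. Gadd45g, a growth arrest gene, read 102 and 84.1 at 4 hr and 431 and 405 at 0 hr (−2.17, standard error 0.19). Txnip, which encodes a thioredoxin-binding inhibitor of glucose uptake, was among the brightest, at 3122 and 4180 at 4 hr and 8401 and 8321 at 0 hr (−1.21, standard error 0.15). Foxo3 itself (608 and 859 at 4 hr, 1636 and 1684 at 0 hr) fell at 1 of its 3 probe sets. The proapoptotic gene Bcl2l11, the repressor gene Bcl6, and the leucine sensor gene Sesn1 fell at −1.05, −1.04, and −1.49. The insulin receptor substrates Irs1 and Irs2 were called higher, by 0.41 and 0.47, and both calls were lost without either 0 hr array or 4 hr replicate 1 (adjusted p = 0.255 for Irs1 without 0 hr replicate 1). Klf15 and Pdk4, described above, are members of this list too.

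**Figure D3:**
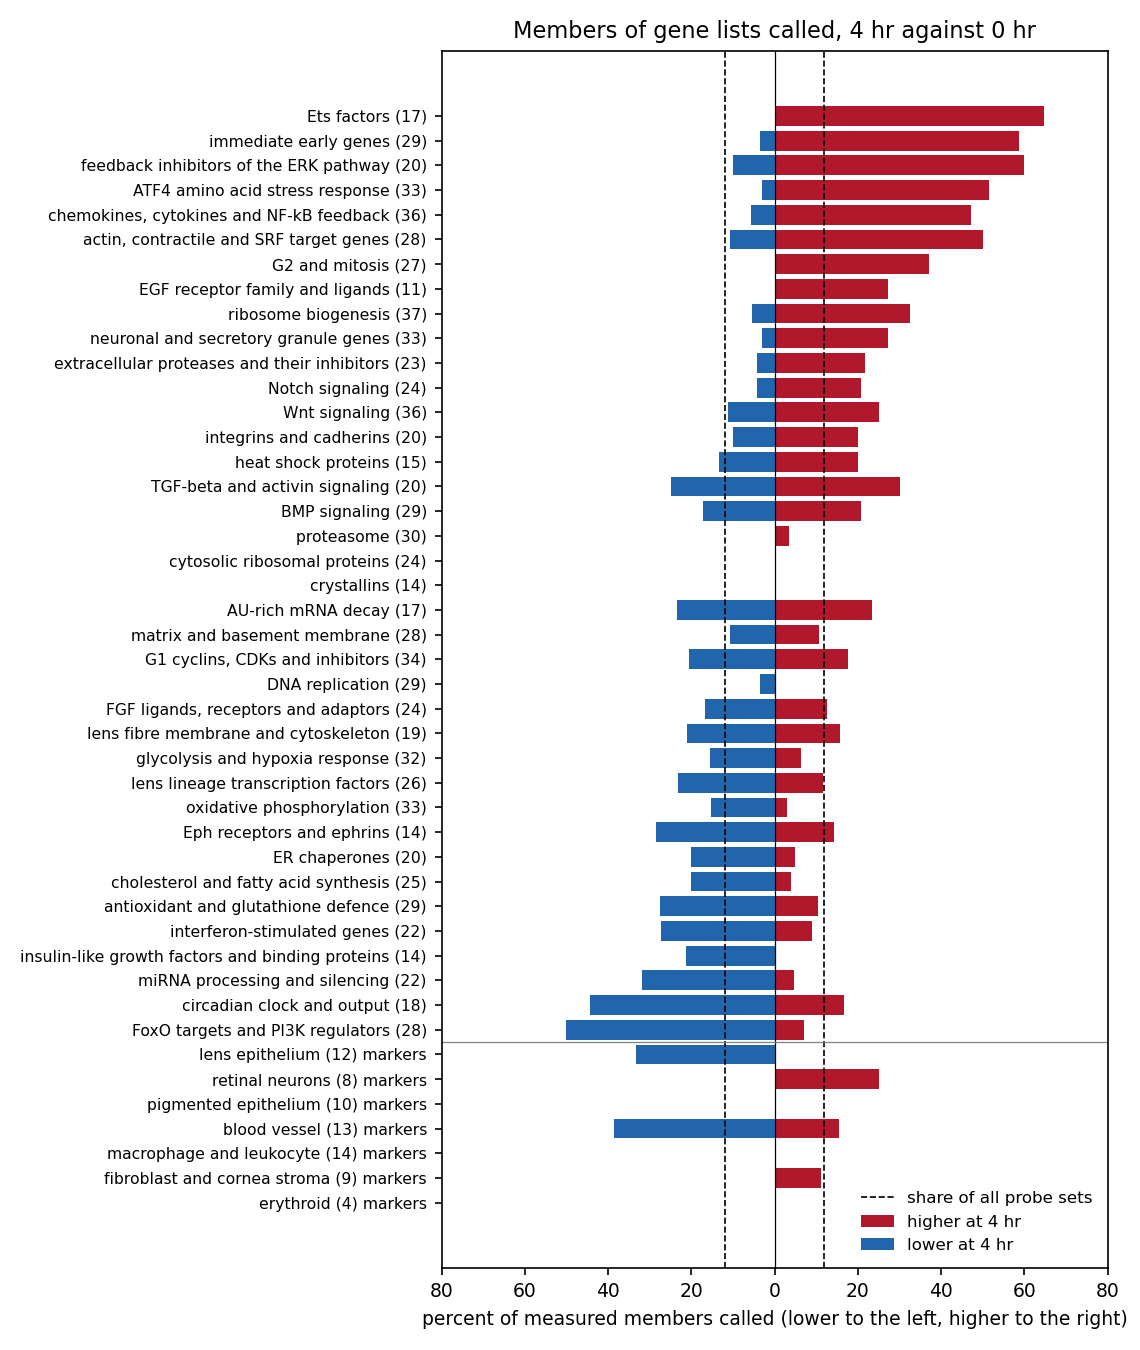
Percent of the measured members of each gene list called higher (red, right) or lower (blue, left) at 4 hr than at 0 hr, with the number measured in parentheses and the markers of cell types under the grey line; the dashed lines are the 11.9% of all probe sets called in each direction. Among Ets factors 11 of 17 were higher, and among FoxO targets and PI3K regulators 14 of 28 were lower.

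Clock genes moved in both directions. Of 18 genes of the circadian clock and its output, 8 fell and 3 rose (median −0.32). The output factors Dbp (237 and 180 at 4 hr, 566 and 628 at 0 hr) and Tef (295 and 267 at 4 hr, 750 and 728 at 0 hr) fell with Hlf, at −1.53 and −1.40, and the period gene Per3 at −0.88. Among the activators Npas2 read 333 and 357 at 4 hr and 28.2 and 30.8 at 0 hr (3.55, standard error 0.09, adjusted p = 1.9e-06), and Bmal1 202 and 358 at 4 hr and 73.8 and 76.6 at 0 hr (1.84, standard error 0.29). The time of day of the arrays was not given in the sources used here. In 14 of the 18 genes 4 hr replicate 2 read higher than 4 hr replicate 1 (median log2 ratio 0.20), against 50.3% of all probe sets. On the 0 hr arrays replicate 2 was higher in 11 of 18. The number of falls was 5 without 0 hr replicate 1, without 0 hr replicate 2, or without 4 hr replicate 1.

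Crystallin genes, the main products of fiber cells, were called by limma in 0 of 14 cases. With a trended and robust prior 1 was called higher. The number at an unadjusted p under 0.05 was 1 by limma and 2 by the methods' analysis of variance, and the median was 0.06. Crygs had the largest difference, at 793 and 1420 at 4 hr and at 538 and 434 at 0 hr (1.14, standard error 0.42, adjusted p = 0.086). Cryaa stood at 25148 and 24207 at 4 hr and at 22515 and 22644 at 0 hr, near the top of the scale of these arrays. The β-crystallin gene Cryba2 shows the spread at 4 hr, with 681 and 2655 at 4 hr and 1360 and 1134 at 0 hr. In 11 of the 14 genes 4 hr replicate 2 read higher than 4 hr replicate 1 (median log2 ratio 0.69), and at 0 hr replicate 2 was higher in 6 of 14 (median log2 ratio −0.06).

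Genes of the fiber membrane and cytoskeleton fell in 4 of 19 cases and rose in 3 (21.1% and 15.8%, where 11.9% of all probe sets were called in each direction). Gja3, which encodes connexin 46 of the fiber gap junctions, was at 1570 and 1906 at 4 hr and at 5025 and 4859 at 0 hr (−1.51, standard error 0.20, adjusted p = 0.001), and both of its probe sets fell. The beaded filament genes Bfsp2 (1367 and 1910 at 4 hr, 3597 and 3799 at 0 hr) and Bfsp1 (119 and 153 at 4 hr, 252 and 272 at 0 hr) fell at −1.19 and −0.96. Mip, the water channel gene of fiber cells, was called lower at −1.44, a call lost without any array of 0, 4, or 24 hr (adjusted p = 0.172 without 0 hr replicate 2). The rises were of Dnase2b, the nuclease that clears fiber nuclei (103 and 103 at 4 hr, 45.3 and 45.2 at 0 hr), and of Caprin2 and Tdrd7, both RNA-binding proteins of the lens, by 0.62 and 0.44. Tdrd7 was not called by the mean of all its probe sets. Among the 26 transcription factors of the lens lineage 6 fell and 3 rose (23.1% and 11.5%). Meis2, an activator of Pax6, read 253 and 263 at 4 hr and 763 and 717 at 0 hr (−1.52, standard error 0.14, adjusted p = 0.0002), Pitx3 351 and 284 at 4 hr and 685 and 629 at 0 hr (−1.06, standard error 0.14), and Mab21l1 3282 and 3546 at 4 hr and 7115 and 7072 at 0 hr (−1.06, standard error 0.09). Pax6 fell by less, with 7127 and 6999 at 4 hr and 9866 and 9836 at 0 hr (−0.48, standard error 0.08). Tfap2a and Nfia fell at −0.75 and −1.15. At its brightest probe set Maf, which drives crystallin genes, was not called (4579 and 3462 at 4 hr, 4834 and 4390 at 0 hr), and 2 of its 3 probe sets were called lower. The number of falls among these factors lay between 6 and 8 when any 1 array was left out, and that of rises was 1 without any 1 array of 0 or 4 hr or with the Actb ratio as a covariate.

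Of 27 genes of G2 and mitosis 10 rose and none fell (median 0.57), among them the mitotic kinase Plk1 (627 and 557 at 4 hr, 275 and 290 at 0 hr) and cyclin B1, Ccnb1 (1079 and 1002 at 4 hr, 538 and 500 at 0 hr). Of 29 genes of DNA replication 1, Cdt1, was called lower (565 and 410 at 4 hr, 765 and 650 at 0 hr; adjusted p = 0.198 without 0 hr replicate 1) and none higher. That list had 10 lower calls without 4 hr replicate 1, none without 4 hr replicate 2, either 0 hr array or either 12 hr array, and 8 higher calls with the Actb ratio as a covariate. The number of mitotic genes called rested on single arrays: it was 3 without 4 hr replicate 1, 19 without 4 hr replicate 2, 3 without 0 hr replicate 1, 4 without 0 hr replicate 2, and 16 without either 24 hr array. In all 29 replication genes 4 hr replicate 2 read lower than 4 hr replicate 1 (median log2 ratio −0.62), and in 24 of the 27 mitotic genes, whereas at 0 hr replicate 2 was higher in 16 of the 29 and 17 of the 27. In G1, Ccnd1 and Ccnd3, which encode cyclins D1 and D3, fell (982 and 1120 at 4 hr, 2380 and 2037 at 0 hr for Ccnd1), at −1.07 and −0.71. The inhibitor gene Cdkn2b rose, with 649 and 325 at 4 hr and 60.4 and 64.7 at 0 hr (2.88, standard error 0.45). In all, 6 of the 34 genes of G1 rose and 7 fell (17.6% and 20.6%, where 11.9% of all probe sets were called in each direction). Without 0 hr replicate 1 the counts were 3 and 4, without 0 hr replicate 2 they were 2 and 4, and the number of rises was 3 without 4 hr replicate 1 and 9 without 4 hr replicate 2.

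Among signals that cooperate with FGF in the lens, the BMP, TGF-β, and Wnt lists each held calls in both directions. Of 29 genes of BMP signaling 6 rose and 5 fell (20.7% and 17.2%, where 11.9% of all probe sets were called in each direction). The ligand Bmp2 read 3532 and 3251 at 4 hr and 814 and 861 at 0 hr (2.02, standard error 0.21, adjusted p = 0.00029), and the activin and BMP antagonist Fst 404 and 235 at 4 hr and 35.0 and 50.6 at 0 hr (2.87, standard error 0.40). Of 20 genes of TGF-β and activin signaling 6 rose and 5 fell, or 55.0% of the list, where 23.8% of all probe sets were called, and the largest fall was that of the activin subunit Inhba, with 215 and 223 at 4 hr and 967 and 1007 at 0 hr (−2.17, standard error 0.20). Of 36 genes of Wnt signaling 9 rose and 4 fell (25.0% and 11.1%). The ligands Wnt4 (181 and 320 at 4 hr, 31.6 and 28.3 at 0 hr) and Wnt2 (109 and 161 at 4 hr, 28.1 and 27.4 at 0 hr) rose by 3.01 and 2.26. The receptor Fzd4 fell, with 295 and 302 at 4 hr and 1180 and 1191 at 0 hr (−1.99, standard error 0.09), at 1 of its 2 probe sets, and the receptors Fzd1, Fzd2, and Fzd6 rose by 0.62, 0.94, and 0.64. In the Notch list 5 of 24 rose and 1 fell (20.8% and 4.17%), with the ligand Jag2 at 229 and 316 at 4 hr and at 93.2 and 77.6 at 0 hr (1.66, standard error 0.21). Epha2, an ephrin receptor that orders fiber cells, was at 2773 and 2538 at 4 hr and at 701 and 646 at 0 hr (1.98, standard error 0.14), and 4 of the 14 Eph and ephrin genes fell. Without 0 hr replicate 1 the BMP list had 3 rises and 2 falls and the TGF-β list 3 rises, and without 0 hr replicate 2 the BMP list had 3 falls, the Notch list 3 rises, and the Eph list 2 falls. The Wnt list had 6 rises without either 0 hr array, the BMP list 3 falls and the Eph list 2 falls without 4 hr replicate 1, and the Wnt list 6 falls without either 2 hr array.

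Of the 29 genes of antioxidant defence 8 fell and 3 rose (27.6% and 10.3%, where 11.9% of all probe sets were called in each direction). The quinone reductase gene Nqo1 read 1270 and 873 at 4 hr and 3397 and 3453 at 0 hr (−1.70, standard error 0.21, adjusted p = 0.00064), and Gclm, a subunit of the enzyme that makes the glutathione precursor, 352 and 235 at 4 hr and 834 and 814 at 0 hr (−1.52, standard error 0.18). Hmox1, the inducible heme oxygenase, rose, with 1490 and 2076 at 4 hr and 393 and 390 at 0 hr (2.17, standard error 0.19). All 3 are known targets of the factor NRF2, and they did not move together. The number of falls was 5 without 0 hr replicate 1, 4 without 0 hr replicate 2, and 4 with the Actb ratio as a covariate, and that of rises was 1 without either 0 hr array. Of 32 genes of glycolysis and the hypoxia response 5 fell and 2 rose (15.6% and 6.25%, where 11.9% of all probe sets were called in each direction), with a median of −0.18. The neuronal-type glucose transporter gene Slc2a3 was the steepest rise in that list, at 1884 and 2318 at 4 hr and 457 and 514 at 0 hr (2.11, standard error 0.14). Of 24 cytosolic ribosomal protein genes none was called by limma and 1 had an unadjusted p under 0.05, whereas 7 were called with a trended and robust prior and 12 had an unadjusted P under 0.05 in the methods' analysis of variance.

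Of 22 genes of miRNA processing and silencing 7 fell and 1 rose (median −0.13). The falls included the Argonaute gene Ago1 (625 and 555 at 4 hr, 792 and 826 at 0 hr; −0.46, standard error 0.09, adjusted p = 0.0618 without 0 hr replicate 2) and Cnot2 of the deadenylase complex (−0.68, standard error 0.11). The number of falls was 2 without 0 hr replicate 1, 3 without 0 hr replicate 2, and 3 without 4 hr replicate 1. Of 18 genes of the early network, which the study chose on these samples and which are no independent evidence of a direction, 9 fell and none rose (median −0.34). Map3k1, a kinase gene upstream of Jun kinase, was at 376 and 400 at 4 hr and at 601 and 590 at 0 hr (−0.62, standard error 0.10), and Herc3, a ubiquitin ligase gene, at 227 and 160 at 4 hr and at 419 and 417 at 0 hr (−1.14, standard error 0.16). Without 0 hr replicate 1 the number of falls was 4.

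Of 13 blood vessel markers 5 fell and 2 rose (38.5% and 15.4%, where 11.9% of all probe sets were called in each direction), with a median of −0.51. The endothelial genes Vwf (59.9 and 69.1 at 4 hr, 147 and 147 at 0 hr) and Cldn5 (84.4 and 47.0 at 4 hr, 185 and 229 at 0 hr) were called lower at −1.19 and −1.71, and Emcn, Esam, and Pecam1 at −1.44, −0.78, and −0.51. All of these calls but that of Vwf were lost without 0 hr replicate 2 (adjusted p between 0.0871 for Cldn5 and 0.256 for Pecam1) and without 4 hr replicate 2. The rises were of Des, which encodes desmin of muscle and pericytes, with 4886 and 7283 at 4 hr and 1345 and 1512 at 0 hr (2.06, standard error 0.20), and of Pdgfrb, by 0.52, a call lost without either 0 hr array or 4 hr replicate 1. The summed intensity of the 13 was 6812 and 8961 at 4 hr and 3466 and 4093 at 0 hr, and without Des it was 1927 and 1678 at 4 hr and 2120 and 2581 at 0 hr. None of the 13 read 0. The number of falls was 3 without 0 hr replicate 1 and 2 without 0 hr replicate 2, without 4 hr replicate 2, without either 12 hr array, or with the Actb ratio as a covariate. The part of vessel cells in the other falls was not tested. Markers of the pigmented epithelium (0 of 10) and of red blood cells (0 of 4) were not called by limma, with 1 and 2 at an unadjusted p under 0.05, and 1 of 9 fibroblast and cornea markers, Aldh3a1, was called higher (44.9 and 56.1 at 4 hr, 35.5 and 31.2 at 0 hr). In that list the number of rises was 0 without 0 hr replicate 2, without 4 hr replicate 2, or by the methods' analysis of variance, and 2 without 4 hr replicate 1 or with the Actb ratio as a covariate.

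Against 2 hr, 1159 probe sets (3.73%) were called, 694 higher (2.24%) and 465 lower (1.5%) at 4 hr than at 2 hr, and the arrays of the 2 times did not overlap in 39.3% of all probe sets. The count moved to 627 without 2 hr replicate 2, 762 without 4 hr replicate 1, 1746 without 4 hr replicate 2, 694 without either 0 hr array, and 726 without either 12 hr array, and a fit of the 4 arrays of the 2 times alone called 12.

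Npas2 read 333 and 357 at 4 hr and 40.4 and 39.4 at 2 hr (log2 difference 3.11, standard error 0.09, adjusted p = 6e-06). The cannabinoid receptor gene Cnr1 read 364 and 305 at 4 hr and 55.8 and 26.5 at 2 hr (3.12, standard error 0.40), and the potassium channel gene Kcnd3 336 and 320 at 4 hr and 42.0 and 51.1 at 2 hr (2.82, standard error 0.11). At 0 hr Kcnd3 read 48.2 and 48.3, within the range of its 2 hr arrays. The Rac activator gene Tiam1 (355 and 588 at 4 hr, 85.2 and 61.1 at 2 hr) and the death-associated kinase gene Dapk2 (296 and 329 at 4 hr, 68.8 and 54.0 at 2 hr) were higher at 4 hr as well, by 2.66 and 2.36. Errfi1, which encodes an inhibitor of the EGF receptor, read 283 and 381 at 4 hr and 1634 and 1901 at 2 hr (−2.43, standard error 0.15), and Egr2 1262 and 1996 at 4 hr and 3451 and 4639 at 2 hr (−1.33, standard error 0.25). Ets2 was at 826 and 1230 at 4 hr and at 2442 and 3214 at 2 hr, and Nab1 at 796 and 1032 at 4 hr and at 1825 and 1645 at 2 hr, and both were called lower at 4 hr.

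**Figure D4:**
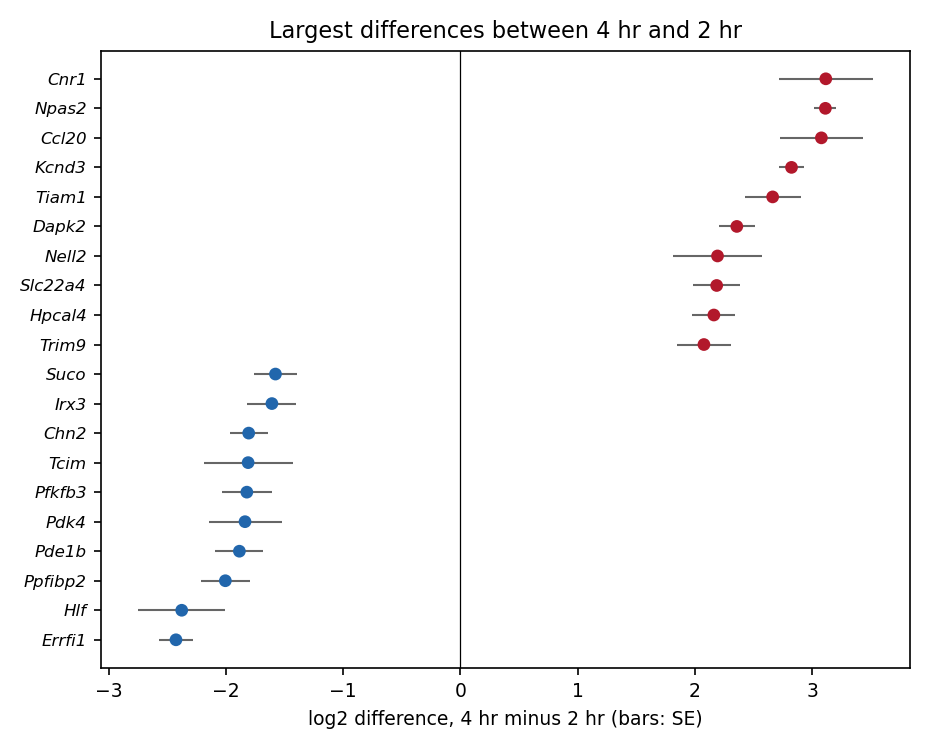
Log2 difference between 4 hr and 2 hr (x axis, 4 hr minus 2 hr, with the standard error as bars) of the 10 genes called with the largest rises and the 10 with the largest falls. Cnr1 (3.12), Npas2 (3.11) and Ccl20 (3.08) lead the rises, and Errfi1 (−2.43) and Hlf (−2.38) the falls.

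By list, the immediate early genes had 4 of 29 lower and none higher at 4 hr than at 2 hr, and the ERK feedback genes 4 of 20 lower and none higher. Over all probe sets 1.5% were lower and 2.24% higher, which stands beside these lists and those that follow. The chemokine and NF-κB list had 6 of 36 higher and none lower, including the neutrophil chemokine Cxcl2 (187 and 151 at 4 hr, 84.1 and 50.3 at 2 hr) and Tnfaip3 (1542 and 1100 at 4 hr, 531 and 712 at 2 hr). The ATF4 list had 8 of 33 higher and none lower. Within it Asns read 821 and 1299 at 4 hr and 446 and 406 at 2 hr (1.28, standard error 0.20), and Slc7a5 1681 and 2060 at 4 hr and 754 and 533 at 2 hr (1.55, standard error 0.17). Of the FoxO and PI3K list 4 of 28 were lower at 4 hr, with Pdk4 at 264 and 363 at 4 hr and at 883 and 1383 at 2 hr, a call lost without 2 hr replicate 2 (adjusted p = 0.0797) or 4 hr replicate 1. The oncogene Mycn read 1536 and 1483 at 4 hr and 594 and 628 at 2 hr (1.31, standard error 0.08), with 1460 and 1439 at 0 hr. The homeobox gene Msx2, a target of BMP, read 715 and 665 at 4 hr, 199 and 220 at 2 hr, and 463 and 492 at 0 hr, and its call against 0 hr was lost without any 1 array of 0 or 4 hr (adjusted p = 0.157 without 0 hr replicate 1). Elk3, Jag2, and the nuclear receptor Rorb read higher at 4 hr than at 2 hr by 1.43, 1.82, and 1.33, and in each the 2 hr arrays overlapped the 0 hr arrays in level.

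Between 4 hr and 12 hr 7116 probe sets (22.9%) were called, 3702 (11.9%) higher and 3414 (11%) lower at 4 hr, and 3649 and 3382 were called without 12 hr replicate 1 and without 12 hr replicate 2. The arrays of 4 hr and 12 hr did not overlap in 62.8% of all probe sets. A set of 307 probe sets was higher at 4 hr than at each of 0, 2, and 12 hr, and 74 were lower at 4 hr than at each of these, by the adjusted p of all 3 comparisons. Of these, 221 and 53 carry 1 gene symbol. Ccl20 and Kcnd3 head the first set by the smallest of the 3 differences: Kcnd3 was at 49.7 and 46.7 at 12 hr, and Ccl20 at 223 and 338. Egfr (494 and 912 at 4 hr, 140 and 174 at 12 hr) belongs to it as well, as do the ubiquitin ligase gene Trim9, Baalc, Sh2d5, and the heparan sulfotransferase gene Hs3st2. Chn2 heads the set of lowest values, with 68.2 and 58.0 at 4 hr, 191 and 252 at 2 hr, and 190 and 189 at 12 hr. Suco, Ppfibp2, Deptor (which encodes an inhibitor of mTOR, at 55.9 and 60.7 at 4 hr and 269 and 275 at 12 hr), Gja3, and Meis2 follow it.

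**Figure D5:**
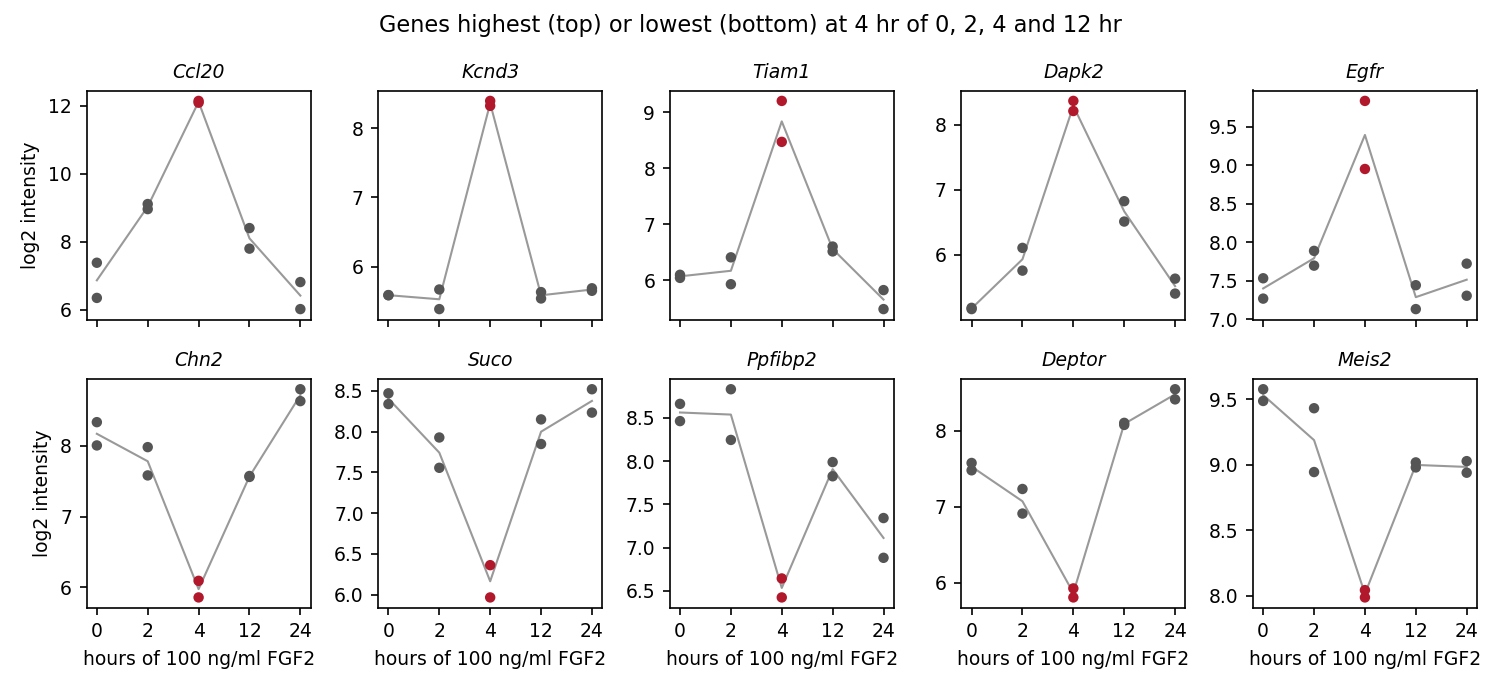
Log2 intensity on the 2 arrays of each time point (points; red at 4 hr) and their mean (line) over 0, 2, 4, 12 and 24 hr for 5 genes highest (top) and 5 lowest (bottom) at 4 hr among 0, 2, 4 and 12 hr, each panel with its own scale and the hours evenly spaced; the line is a mean of log2 values. Kcnd3 reads 336 and 320 at 4 hr and 42.0 to 51.1 at 0, 2 and 12 hr.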

How the data were processed

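Total RNA of lens explants was measured on 10 Affymetrix arrays, 2 per time point. The intensity values were deposited on a linear scale after RMA (robust multichip average) normalization by the authors; its version is not given in the sources used here. The number of probe sets is that of a larger rat array type than the one the paper names, and the labels and the paper name different RNA kits. The values were taken to log2 without further normalization, and 57 array controls were set apart, leaving 31042 probe sets. The platform annotation gave 1 gene symbol to 20826 of them (14217 genes), several to 436, and none to 9780.

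Models with a mean for every time point were fitted to all 10 arrays together (limma 3.58.1 under R 4.3.3), which left 5 residual degrees of freedom, and the variances were shrunk with eBayes towards a prior SD of 0.116 worth 3.69 degrees of freedom. The contrasts set 4 hr against 0 hr, 2 hr, and 12 hr. Calls required p under 0.05 after Benjamini-Hochberg adjustment across every probe set. Precision is limited by having 2 arrays at each time. On simulated arrays of the same design with 200 changed probe sets among 31042 for 4 hr against 0 hr, 28 and 34 of 40 were recovered at log2 changes of −1 and 1, 39 and 37 of 40 at −2 and 2, and 40 of 40 at 3, with 6 false calls. The simulated noise was independent between probe sets and had the same SD at every time point. The real arrays spread more at 4 hr than at 0 hr, lists of genes shifted together between them, and 7385 probe sets were called. These rates therefore do not describe the real comparison.

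Those named were the 20 largest rises and falls against 0 hr and the 10 largest against 2 hr (adjusted p under 0.05, 1 symbol, arrays not overlapping, 1 probe set per gene), 10 genes higher and 10 lower at 4 hr than at 0, 2, and 12 hr, and members of 46 gene lists (1001 of 1111 genes measured), each by its brightest probe set; not all are named. Placeholder symbols were left out. The time point, the gene lists and the rules were chosen with earlier results of these data known. Promoters were the RefSeq windows of GRCr8, matched by symbol and searched on both strands. A gene with several promoters counted once if any of them matched, whereas the shares of all promoters count each promoter. Replicate numbers were not used to pair the arrays. Alternatives were unadjusted p, a fit of only the 2 groups, the methods' analysis of variance with and without Benjamini-Hochberg adjustment, quantile normalization, a robust prior with a trend, centring of the array medians, removal of the 1 in 3 probe sets that were dimmest, a fold change of at least 1.25, the mean of all probe sets of a gene, each array left out in turn (a time point left with 1 array is assumed to vary like the others), a replicate block, and, chosen after seeing the data, array quality weights and a covariate for the Actb 5'/3' ratio. Python 3.11.15 with matplotlib 3.10.9 drew the figures. The miRNA cards of the study were not analysed here.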

Additional observations from a re-analysis of the deposited data

Results flagged for a closer look

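The results given here were picked out because the change from 0 hr differed between 4 hr and 2 hr. All had an adjusted p under 0.05 in the limma test of 4 hr against 2 hr. The choice of the genes in this paragraph also required both arrays of each time on their own side. The list members in the next paragraph were taken from genes named in the text, by the adjusted p alone. Values are log2 differences, 4 hr minus 2 hr, with 2 arrays per time point. The genes higher at 4 hr were Cnr1 (3.12), Npas2 (3.11), Ccl20 (3.08), Kcnd3 (2.82), Tiam1 (2.66), Dapk2 (2.36), Nell2 (2.19), Slc22a4 (2.18), Hpcal4 (2.16), and Trim9 (2.08). The genes lower at 4 hr were Errfi1 (−2.43), Hlf (−2.38), Ppfibp2 (−2.0), Pde1b (−1.88), Pdk4 (−1.84), Pfkfb3 (−1.82), Tcim (−1.81), Chn2 (−1.81), Irx3 (−1.61), and Suco (−1.58). Nell2, a secreted glycoprotein of neurons, was not called against 0 hr, with 124 and 159 at 4 hr, 47.8 and 19.8 at 2 hr, and 125 and 177 at 0 hr. Irx3, a homeobox factor, read 37.8 and 60.6 at 4 hr, 136 and 157 at 2 hr, and 15.4 and 18.2 at 0 hr.

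Among members of the gene lists, Jag2 (1.82), Msx2 (1.72), Slc7a5 (1.55), Elk3 (1.43), Cxcl2 (1.37), Rorb (1.33), Mycn (1.31), Asns (1.28), and Tnfaip3 (1.08) were higher, and Ets2 (−1.47), Egr2 (−1.33), and Nab1 (−0.93) were lower at 4 hr than at 2 hr. Other list members also differed and are counted in the text by list. The call of Tcim was lost when 1 array of 0, 4, 12, or 24 hr was left out (adjusted p = 0.144 without 4 hr replicate 1), that of Hlf without 2 hr replicate 2 (adjusted p = 0.0511), and that of Nell2 without 4 hr replicate 2 (adjusted p = 0.0504). A fit of only the 4 arrays of the 2 times kept 4 of the 20 genes first named; the cause was not tested. Outlying arrays were not tested for, since a time point has 2 arrays.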

How the results depend on the processing

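The counts called moved as follows. Against 0 hr, the methods' analysis of variance after Benjamini-Hochberg called 2, where limma called 7385, and the counts with 1 array left out ran from 3973 to 8011. Against 2 hr (1159), unadjusted p from limma called 5301, a fit of only the 2 groups 12, the analysis of variance 2351 with unadjusted P and 0 after Benjamini-Hochberg, and array quality weights 447; with 1 array left out the counts ran from 627 to 1746. Against 12 hr (7116), unadjusted p called 10985, the analysis of variance 0 after Benjamini-Hochberg and 6711 with unadjusted P, and with 1 array left out the counts ran from 3382 to 7884. With a replicate block the 3 comparisons called 7040, 994, and 6758. The labels do not say what an equal number shares, and equal-numbered arrays deviated together with a correlation of 0.33 between 4 hr and 2 hr, −0.09 between 4 hr and 0 hr, and −0.003 between 4 hr and 12 hr. The block changed none of the calls of the 40 genes with the largest changes against 0 hr or of the 20 against 2 hr. Those 40 genes kept their direction under every alternative run. The analysis of variance kept 37 calls with unadjusted P (not Trib3, Bhlhe41, and Cd200) and 0 after Benjamini-Hochberg, and the fit of only the 2 groups kept 39 (not Bhlhe41).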

Other observations

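Of 22 interferon-stimulated genes, 6 fell and 2 rose between 4 hr and 0 hr (27.3% and 9.09%, where 11.9% of all probe sets were called in each direction). The antiviral sensor gene Rig1 read 66.2 and 59.4 at 4 hr and 207 and 143 at 0 hr (log2 difference −1.46, standard error 0.21), and Stat2, which carries the interferon signal, 296 and 278 at 4 hr and 450 and 472 at 0 hr (−0.68, standard error 0.08). In contrast, the guanylate-binding protein gene Gbp2 read 1138 and 608 at 4 hr and 230 and 264 at 0 hr (1.75, standard error 0.30). The number of falls was 4 without 4 hr replicate 2, and that of rises was 1 without either 0 hr array, 4 hr replicate 2, or either 12 hr array. Several members that were not called, such as Isg15 (61.7 and 54.3 at 4 hr, 147 and 60.0 at 0 hr) and Usp18 (41.0 and 35.0 at 4 hr, 84.7 and 32.9 at 0 hr), were high on 0 hr replicate 1 alone.

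The cochaperone gene Bag3 read 728 and 716 at 4 hr and 132 and 139 at 0 hr (2.42, standard error 0.11). Of 37 genes of ribosome biogenesis 12 rose and 2 fell, with Heatr1 the steepest (0.84, standard error 0.11). That number of rises was 7 without 0 hr replicate 1, 3 without 0 hr replicate 2, and 6 without 4 hr replicate 1. In 2 of the 37 genes 4 hr replicate 2 read higher than 4 hr replicate 1 (5.4%, against 50.3% of all probe sets; median log2 ratio −0.16), and on the 0 hr arrays replicate 2 was higher in 12 of 37.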
